A study of Mus musculus with 76 samples.

Results

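The kidneys examined came from mice that had partial nephrectomy (PNx) and received transplanted cells labelled Lenti-adipo-scrambled, called scrambled cells here, and from mice that had sham surgery and received no cells (Sham). All were male Fox Chase SCID mice (CB17/Icr-Prkdcscid/IcrlcoCrl) aged 12 weeks, a strain that lacks working T and B lymphocytes, and no other allele is given for either group. The samples were chosen by their surgery, transplantation and tissue labels. They are 10 of the 74 samples in the series, 5 in each group. The series covers heart, kidney and visceral fat in 5 arms and concerns Na/K-ATPase signalling of adipose tissue in the heart disease of kidney failure. The scrambled construct is the control for NaKtide, a peptide that keeps the sodium pump from activating the kinase Src. The sources used here do not give the type and number of the transplanted cells, the extent of kidney removal or the time from surgery to tissue collection. Surgery and cells both differ between the 2 groups, so their effects cannot be told apart in this comparison, and the arm with PNx and no cells (5 samples) was set beside it. Nothing in the labels says that the samples of a group came from separate animals, so p-values measure the spread between these samples, which may be technical.

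Loss of kidney mass is known to make the remaining nephrons enlarge and, later, to scar. Injured tubule cells lose carriers of the proximal tubule, secrete injury proteins, enter or stall in the cell cycle and draw in macrophages, while fibroblasts lay down collagen. The kidney also runs a circadian clock that sets the daily rhythm of many transport genes.

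Kidneys after PNx with scrambled cells had more RNA of macrophage, tubule injury, mitosis and matrix genes than Sham kidneys, and less RNA of most clock genes and proximal tubule carriers. Of 15413 genes tested with edgeR's quasi-likelihood test, 2249 rose (14.6%) and 2315 fell (15%) at a Benjamini-Hochberg adjusted p under 0.05, together 4564 (29.6%). The median log2 fold change over all genes tested was 0.0071. These percentages are the background for the counts of each gene list below, and each list is described by its counts and its median only. Levels are CPM, read counts relative to the TMM-scaled library total, given for samples 1 to 5 in that order. A log2 fold change is given with its standard error (SE), means with their SD (n = 5), and "passed" means that the adjusted p was under 0.05. The naming rule picked 10 rises and 10 falls by size among called genes with a log2 CPM averaging 2 or more and groups that did not overlap, so for these 20 the lack of overlap was set by the choice. Of all 15413 genes tested, 1184 were higher and 1797 lower with scrambled cells without overlap, which is the background for each mention of it. In bulk tissue, fewer cells of a type and less RNA per cell cannot be told apart.

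Total counts ran from 8362228 to 10841221 in the scrambled-cell samples and from 6157325 to 14508779 in Sham, where the largest, Sham 3, is the sum of 2 libraries. The chi-square of their counts over genes, divided by its degrees of freedom, was 9.41, and between the first libraries of the Sham samples it was 3.5 to 6.93. Between the second library and Sham 1, 2, 4 and 5 it was 9.21 to 14.46, so that library stood apart from all Sham samples. Whether the second is a repeat run or another sample cannot be told from the labels, so values of Sham 3 carry that doubt. Kidney markers were present in every sample: the summed level of 28 proximal tubule carriers was at least 9556 CPM. The 6 adrenal cortex markers summed to 1.30 to 3.04 CPM with scrambled cells and 1.65 to 2.92 CPM in Sham. Of these, Cyp11b1, Cyp11b2 and Cyp21a1 were at 0 throughout. The lymphocyte marker Ms4a1 was also at 0, and the 10 lymphocyte markers summed to 3.77 to 5.83 CPM with scrambled cells and 2.41 to 4.48 CPM in Sham. A library measure moved with the groups. The genes were split by exon length into 5134 short, 5133 middle and 5133 long ones. The length index, the mean log2 level of short genes minus that of long genes, was -0.72, -0.35, -0.23, -0.10 and -0.58 in scrambled cells 1 to 5 and -0.92 to -0.76 in Sham, with no overlap. For the index alone, the same kind of split was made anew on the genes abundant enough to test over all 5 kidney arms. Among short genes (up to 2611 bases) 1437 rose and 202 fell, and among long genes 232 rose and 1519 fell. A second fit removed each library's trend of level on gene length, a setting chosen after the data were seen. It called 3259 genes (21.1%), with 1615 rises (10.5%) and 1644 falls (10.7%). Its counts were nearer to even, with 609 rises and 442 falls among short genes and 492 and 637 among long ones. Counts under this fit are given for most lists. With the index itself as a covariate 52 genes passed, 35 as rises and 17 as falls, which is the background for list counts under that setting. The part of RNA quality in the index was not tested. A fit of all 5 kidney arms called 588 of 16307 genes tested, 281 as rises and 307 as falls, which is the background for its list counts. Its arm of PNx without cells held libraries with a length index from -0.90 to 0.20. The index ran from -0.89 to 0.28 in the arm with control cells and from -1 to -0.12 in the arm with NaKtide cells. The library of control cells 5 had 1241590 counts. The part of these libraries in the lower count was not tested. Of 136 called genes picked by the naming rule, 119 kept the call with the length trend removed, 60 in the 5-arm fit and 13 with the index as a covariate. With that covariate no more than 2 calls were left in any of the 23 lists with at least 4 calls in a direction. Since the index did not overlap between the groups, a fit with this covariate cannot fully tell index and group apart. Its low counts, here and in the lists below, therefore do not show which of the 2 the calls follow. On the first principal component (43.7% of the variance) every Sham sample stood at 22.4 or above and scrambled cells 2 to 5 at -30.8 or below, with scrambled cells 1 between them at -5.

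**Figure D1:**
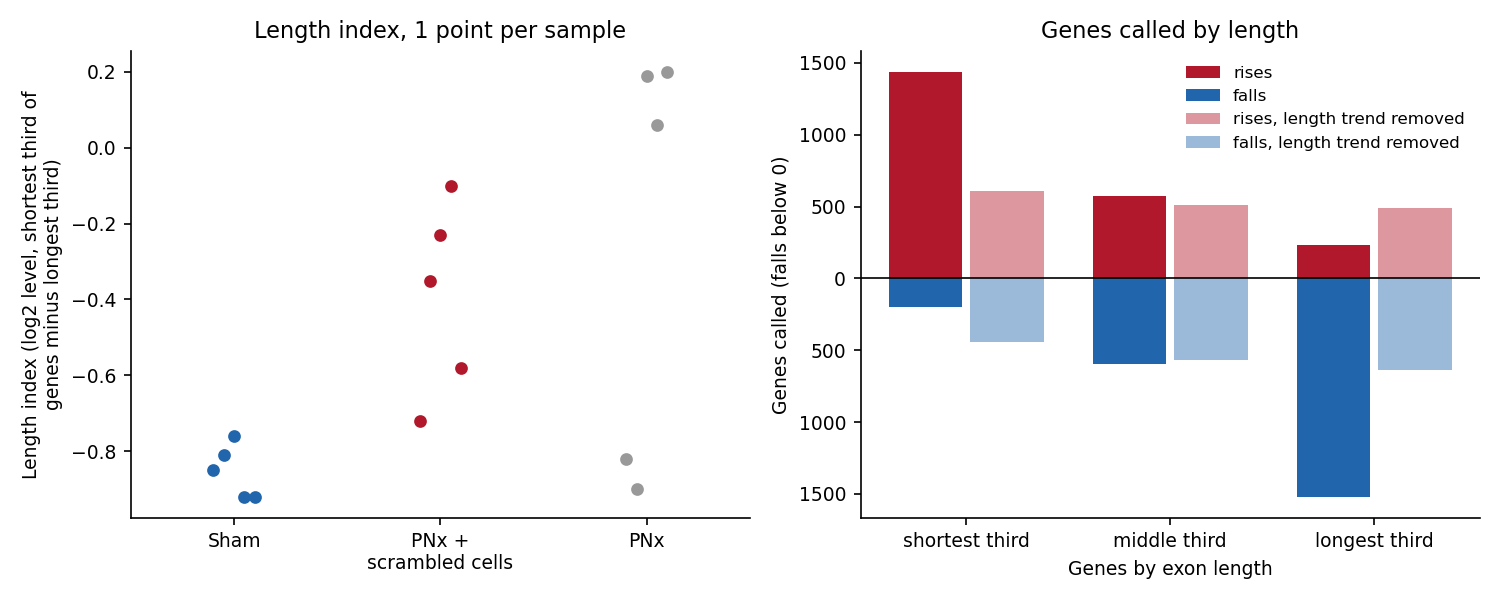
Left, the length index of each kidney sample (mean log2 level of short minus long genes, 1 point per sample, 5 per arm); right, the number of genes called in each class of exon length, rises above 0 and falls below, before and after removal of the length trend (pale bars). The scrambled-cell samples lie between -0.72 and -0.10, all above the Sham samples, and the 1437 rises of short genes become 609 when the trend is removed.

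Macrophage genes rose as a group. Of 14 tested, 13 rose (92.9%) and none fell, with a median log2 fold change of 1.84. The count was also 13 with the length trend removed and 13 without each single library, but 5 in the 5-arm fit and 1 with the length index as a covariate. Lyz2, lysozyme of macrophages and neutrophils (ENSMUSG00000069516, chr10:117277331-117282321 on GRCm38), was at 107, 858, 277, 144 and 536 CPM after PNx with scrambled cells and at 21.5, 26.8, 25.4, 32.1 and 31.4 CPM in Sham. Its log2 fold change was 3.81 ± 0.49 (adjusted p = 0.000632), and scrambled cells 2 and 5 were the highest. Its near-identical neighbour Lyz1 rose by 4.32 ± 0.58. Reads of this pair may have been split by the counting, so each single value is uncertain. The lysosomal glycoprotein Cd68 was at 7.72, 39.4, 7.43, 5.43 and 10.05 CPM against 1.39, 1.86, 1.67, 1.92 and 2.87 CPM in Sham. Scrambled cells 2 was by far the highest, and without it the log2 fold change of 2.85 ± 0.53 became 1.99. The complement genes C1qa and C1qb, which macrophages make, had a smaller spread relative to their mean than Cd68. C1qa was at 37.5 ± 15.2 CPM against 10.4 ± 0.788 CPM and C1qb at 30.5 ± 13.4 against 7.99 ± 0.666 CPM. H2-Ab1, a class II antigen-presenting molecule, rose by 1.47 ± 0.22 on the log2 scale and the protease Ctss by 2.65 ± 0.44. The exception was Csf1r, the receptor for macrophage growth factor (log2 fold change -0.01 ± 0.15, adjusted p = 0.962), named after its value was seen.

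The highest fold change among the named genes belonged to Mmp12, the elastase that macrophages secrete (ENSMUSG00000049723, chr9:7344381-7369499). It was at 7.91, 175, 23.96, 5.43 and 7.05 CPM with scrambled cells and at 0.891, 1.05, 1.02, 0.349 and 1.67 CPM in Sham. The log2 fold change was 5.39 ± 1.08 (adjusted p = 0.00352), and leaving out scrambled cells 2 lowered it to 3.42. Ctsk, a collagen-degrading cathepsin, and Ifi27l2a, an interferon-induced gene, had the same single high sample. Their log2 fold changes of 3.14 ± 0.72 and 2.73 ± 0.55 became 1.78 and 1.76 without scrambled cells 2, and both still passed. Scrambled cells 2 also had the highest summed macrophage level, 1960 CPM. The group ran up to it from 717 CPM, and Sham ran from 285 to 395 CPM. The same sample held 1390 CPM of summed adipocyte markers, against 285 to 394 CPM in the other 4 of its group and 352 to 448 CPM in Sham. Cfd, a protein secreted by fat cells, was at 2.94, 393, 3.77, 6.03 and 0.264 CPM with scrambled cells and at 0.239 to 11.1 CPM in Sham. The part of fat tissue in the macrophage values, of this sample and of the others, was not tested. Of 9 neutrophil markers only Csf3r and S100a9 were abundant enough to test, and both rose, by 1.47 ± 0.36 and 1.77 ± 0.46. Mpo was at 0, and the neutrophil sum was 4.46 to 13.4 CPM against 1.46 to 2.87 CPM in Sham.

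**Figure D2:**
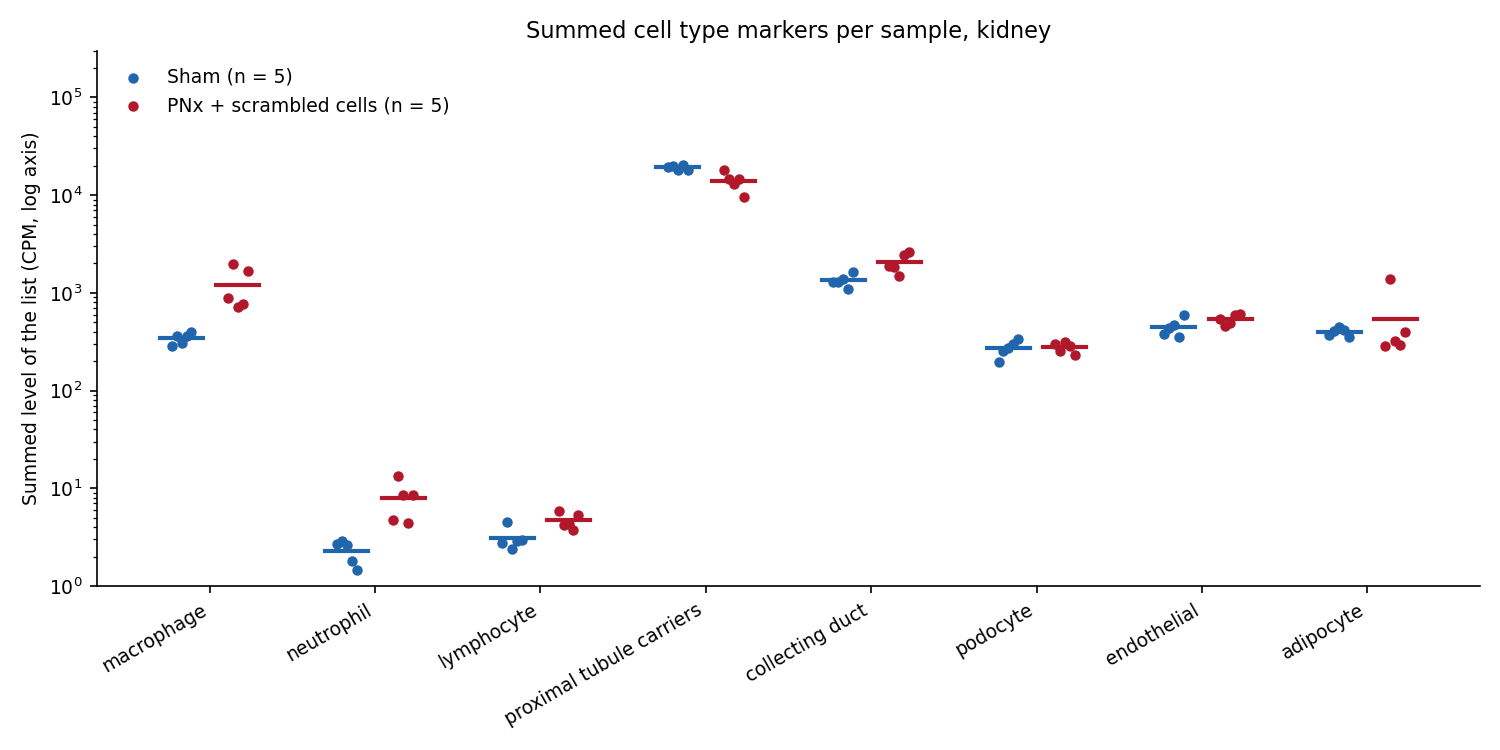
Summed level (CPM, log axis) of the markers of 8 cell types in each sample, Sham in blue and PNx with scrambled cells in red, 5 samples each, with bars at the group means. Macrophage sums of 717 to 1960 CPM lie above all Sham samples (285 to 395 CPM), and 1 scrambled-cell sample stands out for adipocyte markers at 1390 CPM.

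Genes of immune signalling rose in part. Of 8 chemokines and cytokines tested, 3 rose and none fell: Cxcl16 (0.93 ± 0.10), Ccl5 (0.89 ± 0.24) and the inflammatory cytokine Il1b (1.77 ± 0.54). Cxcl16, a membrane-bound chemokine, was at 108, 115, 115, 119 and 119 CPM against 49.2, 63.5, 58.9, 67.2 and 64.7 CPM in Sham, and no sample overlapped. Ccl2, the main attractant of monocytes, was too low to test. Il1b lost its call without scrambled cells 2 (adjusted p = 0.0635), Sham 1 (0.0621) or Sham 3 (0.0667), and Ccl5 lost it with the length trend removed (0.0887). Of 14 interferon-response genes, 4 rose (28.6%) and none fell, with a median of 0.63. Isg15, a ubiquitin-like protein of that response, rose by 1.56 ± 0.26, the membrane tether Bst2 by 0.98 ± 0.17 and the transcription factor Irf7 by 0.95 ± 0.18. The 5-arm fit called 1 of them.

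Tubule injury genes rose. Of 15 tested, 10 rose (66.7%) and none fell, the median was 1.07, and 10 passed with the length trend removed. Lcn2, the siderophore-binding protein that injured tubules and neutrophils secrete (ENSMUSG00000026822, chr2:32384633-32388252), was at 17.1, 67.96, 11.5, 38.9 and 167 CPM after PNx with scrambled cells and at 2.97, 1.98, 3.05, 2.79 and 5.74 CPM in Sham. Its log2 fold change was 4.20 ± 0.67 (adjusted p = 0.00131), with a wide range between the scrambled-cell samples. Without scrambled cells 5 it was 3.35, and in the 5-arm fit its adjusted p was 0.0704. Clu, an extracellular chaperone, had a small spread. It was at 383, 343, 261, 389 and 374 CPM against 164, 164, 166, 158 and 181 CPM, a log2 fold change of 1.07 ± 0.12 (adjusted p = 0.000331). C3, the central complement component, was at 98.7, 188, 45.9, 64.9 and 165 CPM against 22.7 to 35.9 CPM in Sham, a rise of 2.05 ± 0.32, and S100a6, a calcium-binding protein, rose by 2.04 ± 0.35. Havcr1, which encodes the proximal injury marker KIM-1, did not pass. It was at 20.9, 34.8, 39.8, 16.6 and 66.7 CPM and, in Sham, at 19.7, 24.2, 23.5, 29.8 and 29.5 CPM (log2 fold change 0.50 ± 0.30, adjusted p = 0.214), and the groups overlapped. The 5-arm fit called 3 of the injury genes.

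Genes of the extracellular matrix rose as well, 12 of 21 (57.1%) with none falling and a median of 0.68. After removal of the length trend 14 rose and the median was 0.91. Col3a1, a collagen of reticular fibres, was at 67.5, 161, 57.3, 39.9 and 118 CPM against 14.3, 21.2, 19.98, 17.6 and 20.6 CPM in Sham (log2 fold change 2.24 ± 0.32, adjusted p = 0.000875). Col1a1, the main collagen of scar, was at 46.9, 84.3, 22.8, 23.03 and 40.9 CPM against 9.11 to 15.3 CPM (1.82 ± 0.32). In both collagens scrambled cells 2 was the highest and no sample overlapped with Sham. The collagen-binding protein Sparc rose by 1.03 ± 0.19 and the membrane protease Mmp14 from 5.78 ± 0.583 to 13.2 ± 4.92 CPM. Fibronectin, Fn1, passed narrowly (0.62 ± 0.21, adjusted p = 0.0424) and lost its call without scrambled cells 1, 2 or 5 or without Sham 1, 2, 3 or 4. The count of matrix genes was 7 without scrambled cells 2, without Sham 1 or without Sham 4, and 4 in the 5-arm fit. Of 17 genes of TGF-β signalling, which drives matrix synthesis, 1 rose and 4 fell (23.5%), with a median of -0.14. The ligand gene Tgfb1 was at 17.2 ± 3.06 CPM against 13.5 ± 2.70 CPM and did not pass (0.35 ± 0.17, adjusted p = 0.121). The target gene Tgfbi was the rise (0.81 ± 0.27), and its call was lost without scrambled cells 2 or 5 or without Sham 1, 2, 3 or 4. The signal transducers Smad3 (-0.59 ± 0.15) and Smad4 (-0.55 ± 0.13) were among those that fell. After removal of the length trend 2 of these genes fell, and 2 without Sham 2 or without scrambled cells 2 or 4.

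Mitosis genes rose together. Of 15 tested, 12 rose (80%) and all 15 were higher, with a median of 1.36. Without the length trend 12 passed, in the 5-arm fit 11, with the length index as a covariate 2, and 11 to 16 of the 20 listed when single libraries were left out, since the genes abundant enough to test then differ. Cdk1, the kinase that starts mitosis (ENSMUSG00000019942, chr10:69335146-69352938), was at 4.87, 6.77, 2.83, 5.53 and 6.35 CPM with scrambled cells and at 1.58, 1.05, 1.96, 1.22 and 1.08 CPM in Sham. Its log2 fold change was 1.89 ± 0.28 (adjusted p = 0.000936), and its lowest scrambled-cell sample lay above the highest Sham sample. Ccnb2, a cyclin partner of Cdk1, was at 3.68, 4.71, 2.51, 2.72 and 4.14 CPM against 0.990, 0.698, 1.60, 1.57 and 1.08 CPM (1.57 ± 0.28). Birc5, which guards chromosome segregation, rose by 1.76 ± 0.30, the cyclin Ccna2 by 1.60 ± 0.31 and the proliferation marker Mki67 by 1.36 ± 0.31. Cdk1 had 68 counts in the 5 Sham samples together and Ccnb2 56, so the Sham values rest on few reads. In DNA replication 4 of 17 genes rose (23.5%), with no fall and a median of 0.24. The rises were Tyms (0.69 ± 0.14) and Rrm2 (1.39 ± 0.30), enzymes of nucleotide supply, Gins2 (1.17 ± 0.24) of the replicative helicase, and the transcription factor E2f1 (0.97 ± 0.23).

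The sequences before the starts of Cdk1 and Ccnb2 are printed because promoters of mitosis genes are known to share the CCAAT box and the CHR element. They are the 250 bases before the RefSeq start on GRCm38.p6, read 5′ to 3′ on the gene's strand, which is the minus strand for both (chr10:69352913-69353162 for Cdk1 and chr9:70421555-70421804 for Ccnb2). Capitals mark CCAAT, or ATTGG for the same box on the other strand, and the CHR letters TTTGAA. Both strands were searched for each motif.
Cdk1: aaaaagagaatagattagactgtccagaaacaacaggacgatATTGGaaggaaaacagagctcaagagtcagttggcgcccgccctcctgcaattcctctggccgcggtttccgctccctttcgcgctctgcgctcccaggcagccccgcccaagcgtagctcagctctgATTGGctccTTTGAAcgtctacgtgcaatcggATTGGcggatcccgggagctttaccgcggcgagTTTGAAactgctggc
Ccnb2: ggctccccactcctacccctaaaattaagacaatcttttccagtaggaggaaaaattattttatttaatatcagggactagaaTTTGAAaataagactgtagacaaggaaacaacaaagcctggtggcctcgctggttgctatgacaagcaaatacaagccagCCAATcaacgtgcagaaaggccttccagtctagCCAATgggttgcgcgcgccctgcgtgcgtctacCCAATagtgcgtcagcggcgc
Cdk1 held 3 CCAAT boxes, 48, 80 and 208 bases before the start, and 2 CHR matches at 15 and 71 bases. Ccnb2 held 3 CCAAT boxes at 21, 54 and 87 bases and 1 CHR match at 167 bases. Of the 15 mitosis genes tested, 12 had a promoter in the table. Of these, 10 (83.3%) held CCAAT and 7 (58.3%) held the CHR letters, where 33.8% and 16% of all 32851 promoters did. A match describes letters in this window and does not show that a factor binds there.

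Genes that p53 turns on rose in part, 6 of 20 (30%) with none falling and a median of 0.22. The cell cycle inhibitor Cdkn1a, which encodes p21, was at 21.97, 19.3, 22.3, 29.5 and 20.01 CPM against 5.25, 7.33, 6.90, 5.76 and 12.3 CPM in Sham (1.59 ± 0.21, adjusted p = 0.000739). All 5 of its values exceeded those of Sham. The pro-apoptotic genes Bax (0.48 ± 0.12) and Bbc3 (0.82 ± 0.22) and the Akt inhibitor Phlda3 (0.76 ± 0.20) also passed, and Bax lost its call with the length trend removed (adjusted p = 0.0747). Gdf15, a stress-induced cytokine, passed at 0.76 ± 0.23 (adjusted p = 0.0250). It lost its call with the length trend removed (0.0962) and without Sham 2, Sham 3 or Sham 4. In all, 4 of these genes rose with the length trend removed and 2 in the 5-arm fit.

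Detoxifying genes rose in part, among them alpha-class glutathione transferases. Of 21 transferases tested, 7 rose (33.3%) and none fell, with 20 of 21 higher and a median of 0.39. Without the length trend 5 rose. Gsta1, which joins glutathione to electrophiles, was at 62.8, 108, 35.8, 51.3 and 233 CPM against 20.1, 12.1, 17.2, 11.9 and 10.9 CPM in Sham (2.75 ± 0.44, adjusted p = 0.00129). Without scrambled cells 5 its log2 fold change was 2.14. Its close relative Gsta2 was at 101, 170.5, 67.7, 105 and 268 CPM against 21.5 to 39.7 CPM (2.24 ± 0.32). Both were highest in scrambled cells 5, and reads of the pair may have been split between them, so each value is uncertain. The microsomal transferase Mgst1 rose by 1.14 ± 0.18. Of 19 redox genes outside the transferases that the stress factor NRF2 is known to control, 7 rose (36.8%) and 1 fell, with a median of 0.28. The carbonyl reductase Cbr3 rose by 2.43 ± 0.40, the export pump Abcc3 by 1.66 ± 0.31 and the quinone reductase Nqo1 by 0.91 ± 0.19. Srxn1, which repairs peroxiredoxins, rose less and with less spread, from 64.3 ± 8.38 to 96.5 ± 3.06 CPM (0.58 ± 0.10). The 5-arm fit called 4 transferases and 3 redox genes as rises.

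**Figure D3:**
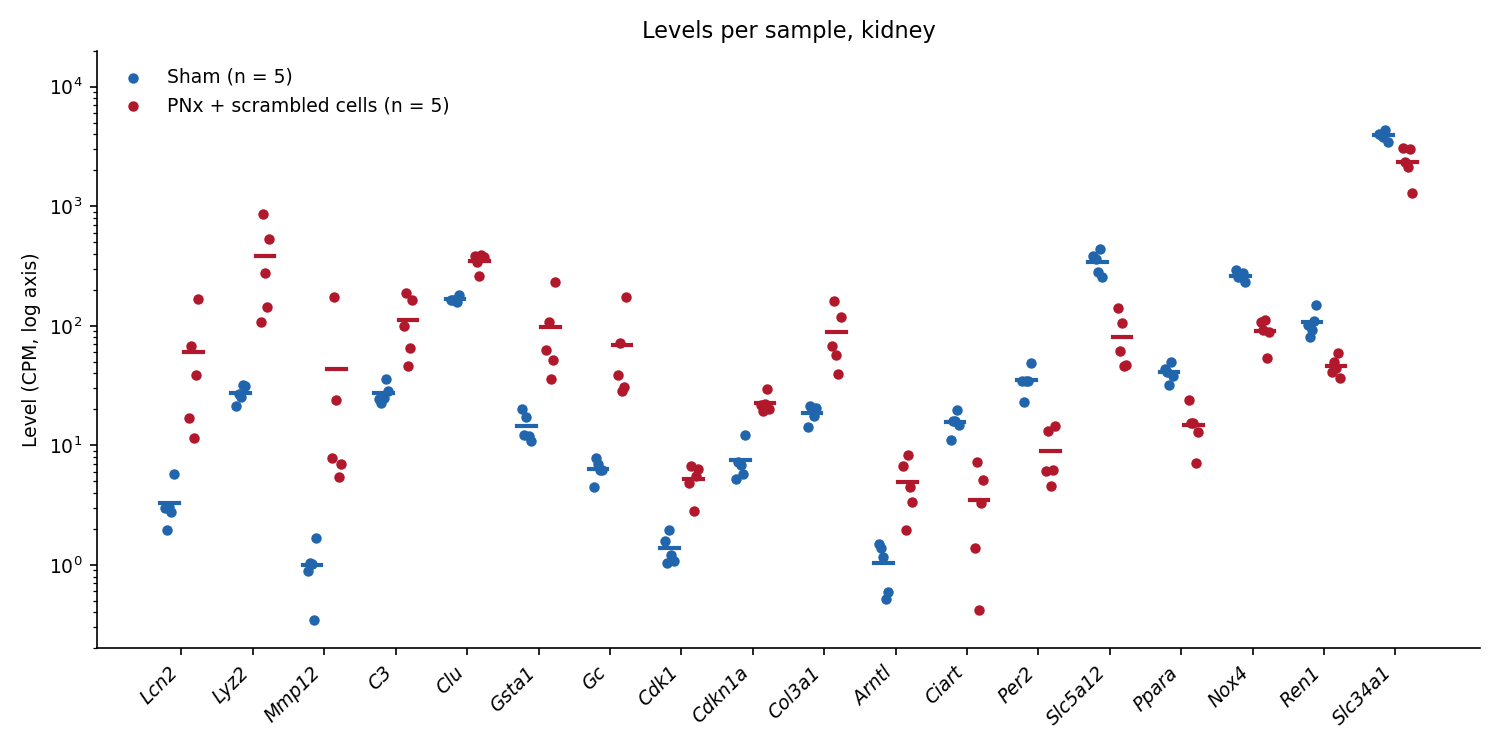
Level of 18 genes (CPM, log axis) in each kidney sample, Sham in blue and PNx with scrambled cells in red, 5 samples each, with bars at the group means. The 11 genes from Lcn2 to Arntl are higher and the 7 from Ciart to Slc34a1 lower with scrambled cells, and within each gene the 2 groups do not overlap, which the naming rule required of those picked by size; Mmp12 spans 5.43 to 175 CPM.

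Clock genes changed in both directions. Of 18 tested, 12 fell (66.7%) and 2 rose, with a median of -0.88. The counts were equal with the length trend removed (median -0.74), and 1 fall passed with the length index as a covariate. Per2, a repressor of the clock (ENSMUSG00000055866, chr1:91415982-91459324), was at 6.07, 13.1, 4.60, 6.23 and 14.6 CPM after PNx with scrambled cells and at 34.4, 22.9, 34.5, 34.5 and 49.1 CPM in Sham (-1.97 ± 0.29, adjusted p = 0.00101). Per3, of the same family, was at 10.4, 11.6, 3.45, 7.54 and 10.9 CPM against 31.3, 26.9, 24.6, 33.7 and 31.9 CPM (-1.75 ± 0.24). Ciart, another repressor, had the largest fall among the named genes. It was at 1.38, 7.23, 0.419, 3.32 and 5.11 CPM against 10.99, 16.1, 16.1, 19.9 and 14.9 CPM (-2.16 ± 0.44, adjusted p = 0.00372). Output factors that carry the rhythm to other genes fell too. Hlf was at 64.9 ± 11.4 CPM against 167 ± 10.2 CPM (-1.36 ± 0.12), Tef at 179 ± 37.1 against 359 ± 28.6 CPM, and Dbp was at 70.7 ± 33.8 against 168 ± 22.6 CPM (-1.25 ± 0.30). The rises were the activator Arntl, also called Bmal1, at 6.71, 1.95, 8.37, 4.53 and 3.35 CPM against 1.48, 1.40, 1.16, 0.523 and 0.598 CPM (2.20 ± 0.40), and Npas2 (2.26 ± 0.46), a partner of Arntl that was named after its value was seen. Scrambled cells 3 had the lowest Per2, Per3, Ciart and Dbp of its group and the highest Arntl. The sources used here do not give the hour of tissue collection, and its part in these values was not tested. The 5-arm fit called 8 falls, and 11 or 12 passed when single libraries were left out.

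The sequences before the starts of Ciart and Per3 are printed for the letters through which clock factors are known to act, the E-box (CACGTG, bound by Arntl with a partner) and the D-box (TTATGTAA, bound by Dbp, Tef and Hlf). They are the 250 bases before the RefSeq start on GRCm38.p6, 5′ to 3′ on the minus strand (chr3:95882229-95882478 for Ciart and chr4:151044666-151044915 for Per3). Capitals mark the E-box in Ciart and the D-box in Per3, and both strands were searched.
Ciart: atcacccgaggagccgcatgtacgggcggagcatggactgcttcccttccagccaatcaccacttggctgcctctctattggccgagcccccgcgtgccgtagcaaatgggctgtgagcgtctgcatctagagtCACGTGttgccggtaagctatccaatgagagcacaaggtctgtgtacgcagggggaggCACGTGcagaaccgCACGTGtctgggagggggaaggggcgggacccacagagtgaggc
Per3: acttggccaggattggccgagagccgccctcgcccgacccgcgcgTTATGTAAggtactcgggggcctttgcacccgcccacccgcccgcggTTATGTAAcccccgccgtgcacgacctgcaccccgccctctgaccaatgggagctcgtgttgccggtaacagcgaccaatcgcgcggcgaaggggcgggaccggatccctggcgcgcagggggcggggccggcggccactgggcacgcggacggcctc
Ciart held 3 E-boxes, 44, 58 and 116 bases before the start, and Per3 held 2 D-boxes, 158 and 205 bases before it. Of the 18 clock genes tested, 15 had a promoter in the table. An E-box was in 5 of these (33.3%) and a D-box in 1 (6.67%), where 6.02% and 0.819% of all 32851 promoters held them.

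Carriers of the proximal tubule, the segment that takes back most filtered solute, fell. Of 28 tested, 18 fell (64.3%), 1 rose and the median was -0.64, and 17 fell with the length trend removed but 1 with the length index as a covariate. Slc5a12, a sodium-coupled lactate carrier (ENSMUSG00000041644, chr2:110597298-110647779), was at 141, 62.1, 105, 46.3 and 47.2 CPM against 387, 362, 279.7, 436 and 256 CPM in Sham. Its log2 fold change was -2.10 ± 0.29 (adjusted p = 0.000862), and scrambled cells 1 had the highest level of its group. The amino acid carrier Slc7a13 fell by 0.80 ± 0.12 on the log2 scale, the glucose carrier Slc2a2 by 0.92 ± 0.15 and the fatty acid carrier Slc27a2 by 0.72 ± 0.12. The phosphate carrier Slc34a1 was at 3063, 2353, 2146, 3002 and 1279 CPM against 4030, 3975, 3799, 4354 and 3439 CPM (-0.73 ± 0.20, adjusted p = 0.0154). The lowest of all samples was scrambled cells 5, which was also lowest in the summed carriers, at 9556 CPM. The carrier that rose was Slc5a1 (0.52 ± 0.11), a glucose carrier of the late proximal tubule, named after its value was seen. For enzymes of the same segment, all 20 tested were lower, 7 passed (35%) and the median was -0.27. They included G6pc (-0.85 ± 0.18), the last step of glucose synthesis, and Cyp2e1 (-0.77 ± 0.17), a cytochrome. The 5-arm fit called 5 carriers and 1 enzyme. Without scrambled cells 2, 3 and 4, the samples of highest length index, 8 carriers and 4 enzymes fell, and without Sham 4 alone 4 enzymes did.

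Genes of the later segments rose in part. Of 16 genes of the loop of Henle and distal tubule, 5 rose (31.2%) and 1 fell, with a median of 0.34. The tight junction genes Cldn16 (1.08 ± 0.21), Cldn19 (1.15 ± 0.26) and Cldn10 (0.75 ± 0.16), which set the passage of ions between cells, were among the rises. Umod, the secreted protein uromodulin, was at 3186 ± 844 CPM against 2353 ± 169 CPM and did not pass (0.44 ± 0.16, adjusted p = 0.0573). Egf, a growth factor of the distal tubule, did not pass either (-0.37 ± 0.14, adjusted p = 0.0628). Of 15 collecting duct genes 5 rose (33.3%) and none fell, with a median of 0.20. The vasopressin-regulated water channel Aqp2 was at 534, 696, 555, 1278 and 1172 CPM against 318, 371, 520.3, 281 and 602 CPM (1.02 ± 0.27), and the groups overlapped. Aqp3, another water channel whose call was lost with the length trend removed (adjusted p = 0.0706), rose by 0.64 ± 0.17 and Fxyd4, a small regulator of the sodium pump, by 1.35 ± 0.28. With the length trend removed 2 collecting duct genes rose, and in the 5-arm fit none did. Without Sham 4 the counts of the distal and collecting duct lists were 3 each, and the same held without scrambled cells 3 for the distal list and without Sham 3 for the collecting duct list. Podocyte genes, of the glomerular filter, split. Nphs1, which encodes nephrin, was at 70.1, 107, 139, 117 and 106 CPM against 50.7, 53.2, 53.5, 49.2 and 59.5 CPM (1.02 ± 0.15), while 4 of 8 fell, among them the transcription factor Wt1 (-1.05 ± 0.30). With the length trend removed 2 fell, as did 2 without Sham 4, and Wt1 lost its call without Sham 3 or Sham 4.

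**Figure D4:**
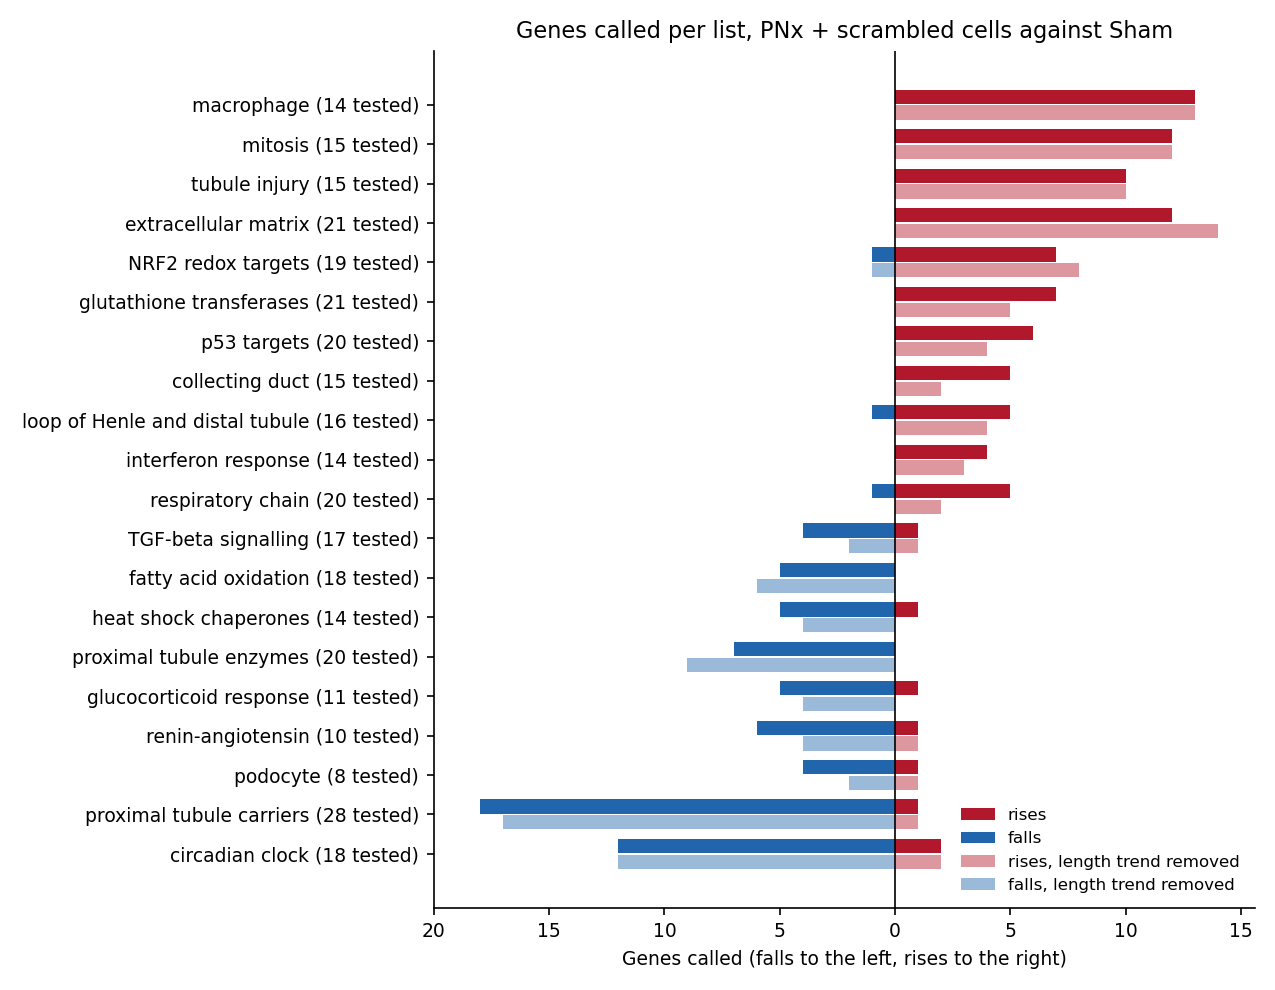
Number of genes called in each of 20 lists, falls to the left and rises to the right, in the 2-arm fit (dark bars) and with the length trend removed (pale bars); the number tested stands beside each name. Macrophage (13 of 14) and mitosis (12 of 15) genes rise and clock (12 of 18) and proximal tubule carrier (18 of 28) genes fall in the 2-arm fit, and collecting duct rises drop from 5 to 2 when the trend is removed.

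Genes of fatty acid oxidation fell in part, 5 of 18 (27.8%) with no rise and a median of -0.19. Ppara, the receptor that drives this program, was at 24.00, 15.3, 15.3, 7.14 and 13.04 CPM against 43.2, 41.2, 32.04, 50.1 and 38.2 CPM (-1.45 ± 0.24, adjusted p = 0.00148). Cpt1a, which brings fatty acids into mitochondria, fell by 0.83 ± 0.13 on the log2 scale. Without Sham 4 the count was 3. Nox4, an NADPH oxidase that is abundant in kidney, was at 107, 92.99, 112, 54.00 and 88.8 CPM against 291, 254, 257, 277 and 232 CPM in Sham (-1.53 ± 0.16, adjusted p = 0.000331). The other falls that the naming rule picked by size were Fcamr (-1.82 ± 0.21), a receptor for IgA and IgM, the zinc finger gene Zfp871 (-1.61 ± 0.32), Myrf (-1.58 ± 0.28), a membrane-bound transcription factor, Irs2 (-1.54 ± 0.29), an adaptor of the insulin receptor, and Cndp1 (-1.52 ± 0.17), which splits carnosine. Gc, the vitamin D-binding protein, was at 38.6, 71.98, 28.8, 30.8 and 173 CPM against 4.45, 7.79, 6.97, 6.28 and 6.21 CPM (3.43 ± 0.47, adjusted p = 0.000862), and without scrambled cells 5 its log2 fold change was 2.74. It was the only rise among 13 genes of vitamin D and phosphate handling, of which 4 fell (30.8%). Klotho, Kl, the co-receptor of the phosphate hormone FGF23, was at 503, 364, 432, 309 and 219.8 CPM against 650.2, 671, 579, 701 and 496 CPM (-0.76 ± 0.19, adjusted p = 0.00920), and its call was lost with the length trend removed (0.0680). The phosphate carrier Slc34a3 fell by 1.06 ± 0.34 on the log2 scale and lost its call without scrambled cells 2 (adjusted p = 0.0732) or without Sham 1, 2 or 4. The vitamin D hydroxylases did not pass: Cyp27b1 was at 8.41 ± 3.16 against 5.93 ± 1.13 CPM (adjusted p = 0.136) and Cyp24a1 at 49.6 ± 35.6 against 55.6 ± 22.9 CPM (0.794).

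In the renin-angiotensin system 6 of 10 genes fell (60%) and 1 rose, with a median of -0.44. Renin, Ren1, was at 40.9, 50.2, 44.7, 58.8 and 36.8 CPM against 102, 80.8, 92.6, 109.9 and 150.4 CPM (-1.21 ± 0.17, adjusted p = 0.000875), and the groups did not overlap. The receptor Agtr1a fell by 0.76 ± 0.16 on the log2 scale and the aminopeptidase Enpep by 0.73 ± 0.13. The rise was Agt, the precursor that renin cuts, at a low level of 1.93, 5.63, 1.26, 2.72 and 2.73 CPM against 0.198 to 1.05 CPM (2.18 ± 0.45). With the length trend removed 4 genes fell, in the 5-arm fit 1, and 4 without Sham 2, Sham 4 or scrambled cells 3. Among 15 genes of the Na/K-ATPase and Src, 3 rose and 2 fell (33.3% called in all), with a median of 0.04. Src itself was at 44.3, 36.3, 32.9, 38.1 and 31.7 CPM against 35.5, 35.7, 33.2, 37.3 and 36.5 CPM (0.04 ± 0.11, adjusted p = 0.797), and the groups overlapped. Egfr, a receptor that Src can activate, fell by 0.70 ± 0.10 on the log2 scale. Lyn, a Src-family kinase of blood cells, rose by 0.53 ± 0.13 and Fxyd5, a pump regulator, by 1.02 ± 0.22.

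Stress and hormone programs were called in both directions, and several lists of this paragraph were near or below the 29.6% called over all genes. Of 14 heat shock chaperones 5 fell (35.7%) and 1 rose, with Hspa8 (-0.61 ± 0.13), Dnaja1 (-0.56 ± 0.09) and Hsph1 (-0.70 ± 0.17) among the falls. Of 11 glucocorticoid-responsive genes 5 fell (45.5%) and 1 rose. The transcription factor Klf9 fell by 0.99 ± 0.14 on the log2 scale, and the chaperone Fkbp5 by 0.64 ± 0.16, a call lost with the length trend removed (adjusted p = 0.178). The count was 2 without Sham 4 or Sham 5, and the 5-arm fit called no fall of either list. Of 18 folding genes of the endoplasmic reticulum, 4 rose (22.2%) and 1 fell. Sdf2l1, a chaperone partner, rose by 1.07 ± 0.18 and Herpud1, of protein degradation, fell by 0.71 ± 0.11 on the log2 scale. The number of rises was 1 without scrambled cells 2 and without each of Sham 1, 2, 3 and 4. In the hypoxia and glycolysis list 2 of 14 rose and 2 fell (28.6% called in all). Car9, a carbonic anhydrase that hypoxia induces, fell by 1.09 ± 0.18 on the log2 scale, and Ankrd37, another hypoxia-induced gene, rose by 1.64 ± 0.39. Of 20 nuclear genes of the respiratory chain 5 rose (25%) and 1 fell, with the subunits Ndufb8 (0.64 ± 0.15) and Cox6c (0.49 ± 0.12) among the rises. With the length trend removed 2 rose, 8 rose without scrambled cells 1, and without scrambled cells 2, 3 and 4 none did. Of 11 endothelial genes 2 rose and 1 fell (27.3% called in all), with Egfl7 (0.69 ± 0.13), a secreted vessel protein, and Ehd3 (-0.72 ± 0.16), of glomerular endothelium, as examples. Of 19 genes of cholesterol synthesis 1 rose and 2 fell (15.8% called in all). Among 13 immediate early genes (15.4% called in all) 1 rose, the stress factor Atf3 (2.49 ± 0.59), and 1 fell, the phosphatase Dusp1 (-0.95 ± 0.14). Summed liver markers were at 321 to 435 CPM with scrambled cells and 132 to 245 CPM in Sham, red blood cell markers at 999 to 3354 and 1772 to 3273 CPM, and skeletal muscle markers at 1.66 to 6.94 and 0.803 to 55.6 CPM, the last highest in Sham 3.

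PNx with scrambled cells was then tested directly against PNx without cells, to ask whether the arm with cells differed from surgery alone. No gene of 15343 passed (0%) with edgeR, DESeq2 or voom. In edgeR 785 had an unadjusted p under 0.05, about the share that this threshold gives by chance. With the length trend removed 1318 of 15343 had such a p in edgeR, a larger share, and again no gene passed. The libraries of the PNx arm spread widely, and a miss of the threshold does not show that the arms were alike. For Cdk1 the difference, scrambled cells minus PNx, was 0.12 ± 0.26 on the log2 scale. It was 0.06 ± 0.37 for Per2, 0.23 ± 0.49 for Slc5a12 and 0.63 ± 0.44 for Gsta1. Of the 20 genes that the naming rule picked by size of change, 3 had an unadjusted edgeR p under 0.05, Mmp12 (4.56 ± 1.06), Ctsk (2.22 ± 0.74) and Ctss (1.53 ± 0.59). Col3a1 (1.66 ± 0.39), Ren1 (-1.53 ± 0.45), S100a9 (-6.62 ± 1.94) and Cfd (4.76 ± 1.84) are examples of other named genes with such a p, singled out after their values were seen, and none passed the adjustment.

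PNx without cells against the same Sham samples gave 146 calls of 14911 genes (0.979%), a count that ran from 3 with a replicate block to 6913 with voom, and from 15 without Sham 1 to 6019 without PNx 2. The comparisons with and without cells share the Sham samples, so their values are set side by side and their likeness is no result. Of the 20 genes picked by size of change with scrambled cells, 9 passed in PNx against Sham. With scrambled cells and with PNx alone, Per2 was at -1.97 ± 0.29 and -1.98 ± 0.29, Slc5a12 at -2.10 ± 0.29 and -2.30 ± 0.44, and Gc at 3.43 ± 0.47 and 3.32 ± 0.56. Mmp12 was at 5.39 ± 1.08 and 0.91 ± 0.52, and Ren1 at -1.21 ± 0.17 and 0.39 ± 0.47, where neither of the PNx values passed. By list, the medians in that order were 1.84 and 1.78 for macrophage genes, 1.36 and 1.82 for mitosis, 1.07 and 1.08 for injury, -0.88 and -0.82 for the clock, -0.64 and -0.56 for proximal tubule carriers and 0.68 and 0.29 for matrix genes. The median over all genes was 0.0071 and 0.0476. The numbers of genes tested differed for mitosis (15 and 17) and matrix (21 and 19). In PNx against Sham 12 of 17 mitosis genes rose, and 5 of 18 clock genes and 2 of 28 carriers fell. No macrophage, injury or matrix gene passed there, so near-equal medians did not come with equal calls.

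**Figure D5:**
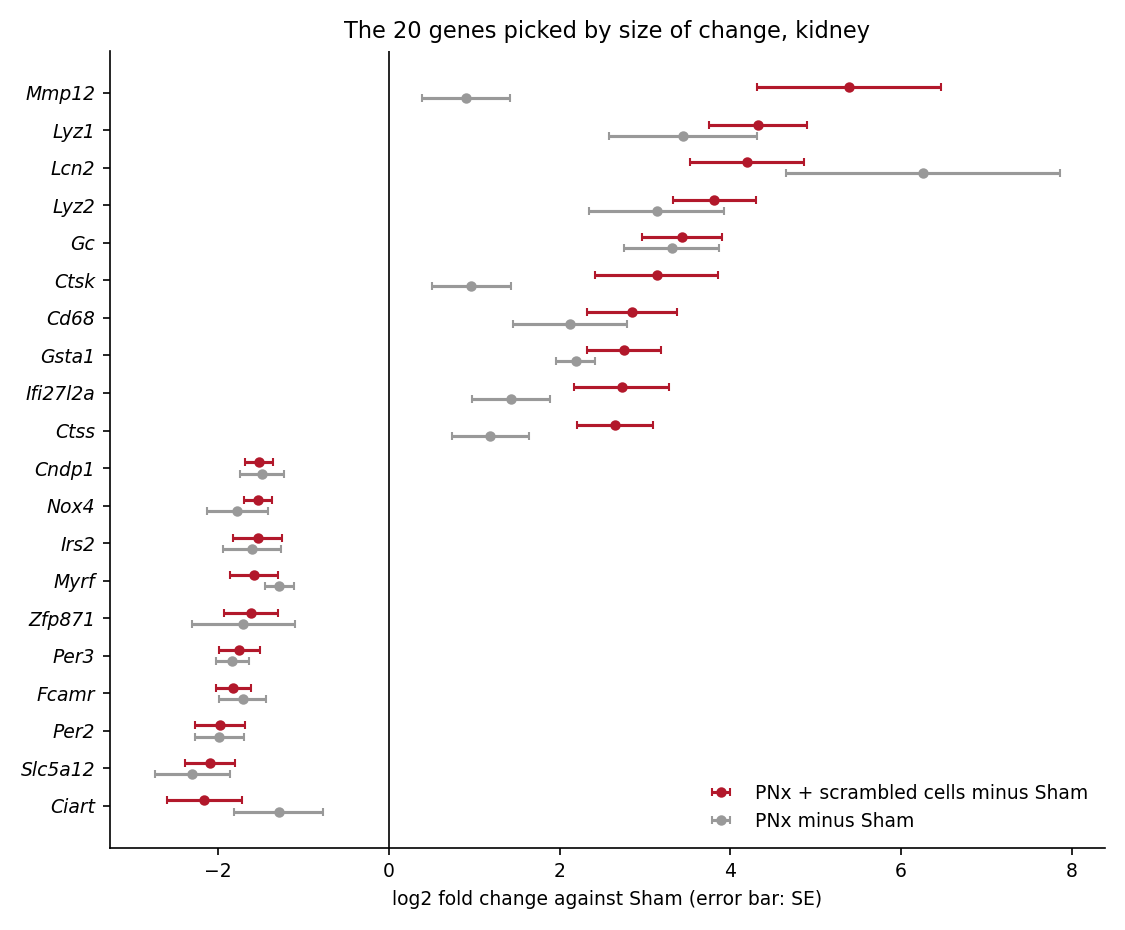
Log2 fold change against Sham with its SE for the 10 rises and 10 falls that the naming rule picked by size, for PNx with scrambled cells (red) and PNx without cells (grey), 5 samples per arm and the same Sham samples in both. Per2 stands at -1.97 and -1.98, and Mmp12 at 5.39 with scrambled cells and 0.91 without.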

How the data were processed

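Raw read counts per gene were deposited by the authors as 1 table of 54232 genes and 76 libraries, and the 10 kidney samples were taken from it by their labels. Per the submitters' processing notes, the GRCm38 build was used, with DESeq2 1.20.0 or 1.20.1, HISAT2 2.1.0 and Trimmomatic 0.38. The sources used here do not give the counting tool, its strand setting or the annotation, so antisense and overlapping genes may share reads. The libraries were paired-end Illumina reads of RNA from flash-frozen tissue, per the labels' protocols.

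The main test was edgeR 4.0.16 (R 4.3.3) on the counts as deposited, with TMM scaling, filterByExpr, the quasi-likelihood F test (2-sided) and Benjamini-Hochberg adjustment over all genes tested, fitted to the 2 arms compared. The second library of Sham 3, whose origin is unclear, was added to the first. Log2 CPM values, as used for the naming rule, the length index and the principal components, had a prior count of 2. Log2 fold changes were those of the edgeR fit, to which this prior count was not applied. DESeq2 1.42.0, voom (limma 3.58.1), other scaling, filter and arms, a replicate block and leaving out each library were alternatives. The length-trend fit used a loess curve (span 0.5) per library as an offset, and it and the fit without scrambled cells 2, 3 and 4 were chosen after seeing the data. Gene positions and lengths came from GENCODE M21 on GRCm38, and promoters from RefSeq. The table's Ctgf was matched as Ccn2.

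The naming rule took the 10 largest rises and 10 largest falls among called genes that had a log2 CPM averaging 2 or more, groups that did not overlap and a named gene, up to 4 called members of each list by adjusted p, and a set of fixed genes. The samples, lists and genes were chosen with earlier results of these data known. On data simulated for this comparison (15275 genes), the test recovered 100% of 100 genes changed by a log2 size of 2 and 88% of 100 changed by a size of 1, with 16 false calls. The changed genes all had a mean above 4 CPM, and no difference in length index between the groups was simulated. These rates therefore do not cover genes of lower level or the length difference of the real samples. Some genes of the lists are not reported here by name.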

Additional observations from a re-analysis of the deposited data

Results flagged for a closer look

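Within each group of 5, a sample was taken as standing apart when its gap to the nearest of the others was a large share of the group's range (Dixon's test). Of 282 sets of 5 values, 18 held such a sample, where chance gives about 1 in 20, and 7 of the 18 were in scrambled cells 2. In each case below the second range is that of the other 4 samples of the group.

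Scrambled cells 2 was high for macrophage and fat genes. Mmp12 was at 174.8 CPM against 5.43 to 23.96 CPM, Ctsk at 65.21 CPM against 5.933 to 10.67 CPM, Cd68 at 39.38 CPM against 5.43 to 10.05 CPM and Ifi27l2a at 103.2 CPM against 9.285 to 22.91 CPM. The fat genes Fabp4 and Cfd were at 386 CPM against 65.18 to 132.4 CPM and 393.4 CPM against 0.2644 to 6.034 CPM, and the summed adipocyte markers at 1390 CPM against 284.6 to 394.4 CPM.

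In scrambled cells 4, Zfp871 was at 1.207 CPM against 4.707 to 5.993 CPM and Bax at 70.89 CPM against 49.02 to 55.25 CPM. In scrambled cells 5, Cyp2e1 was at 823.2 CPM against 1392 to 1578 CPM and Cldn19 at 125 CPM against 45.51 to 67.58 CPM.

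Among Sham samples, Lcn2 was at 5.737 CPM against 1.978 to 3.051 CPM and Aqp3 at 192.4 CPM against 146.6 to 154.5 CPM in Sham 5. Birc5 was at 0.5816 CPM against 1.089 to 1.235 CPM and the summed lymphocyte markers at 4.476 CPM against 2.412 to 2.927 CPM in Sham 2. In Sham 3, S100a6 was at 25.86 CPM against 7.328 to 10.76 CPM and the summed skeletal muscle markers at 55.55 CPM against 0.8034 to 2.436 CPM. Slc27a2 was at 3484 CPM against 2940 to 3086 CPM in Sham 4.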

How the results depend on the processing

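The 4564 calls of scrambled cells against Sham stayed within 1.5 times under DESeq2, another scaling, no filter, the length trend removed and each treatment of the second Sham 3 library. They were 7433 with voom, 588 with all 5 arms in the fit, 52 with the length index as a covariate and 1625 without the 3 scrambled-cell libraries of highest index, and 3133 (without Sham 4) to 5611 (without scrambled cells 1) when single libraries were left out. The cause of these differences was not tested. In the last 2 cases the number of samples was also smaller. Same-numbered samples did not pair (correlations of deviations from -0.19 to 0.23, and only number 5 correlated best with its own), and the replicate block gave 4337 calls. For scrambled cells against PNx the count was 0 under each alternative run, the block included.

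The 146 calls of PNx against Sham became 3974 with DESeq2, 6913 with voom, 60 with no filter, 2742 with all 5 arms, 3 with the replicate block, 89 with the length index, 3811 with the second Sham 3 library kept separate, 66 with it in place of the first and 235 with the length trend removed. Single libraries left out gave 15 to 6019.

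Among the 124 single genes recomputed under each setting, directions turned for 3. The log2 fold change of Cyp24a1 was at 0.47 with the length index, 0.0049 without scrambled cells 2, 0.043 without scrambled cells 5, 0.0057 without Sham 1 and 0.18 without the 3 libraries. Src was at -0.035 without scrambled cells 1. Cfd was at -0.78 with the index, -0.39 without scrambled cells 2 and -1.40 without the 3 libraries. Over all single libraries left out, the ranges were -0.62 to 0.043 for Cyp24a1, -0.035 to 0.0902 for Src and -0.39 to 5.13 for Cfd. Depth limits genes of few reads, such as the mitosis genes in Sham.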

Other observations

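Outside the lists, 5 genes chosen after their values were seen had groups that did not overlap, as had 1184 higher and 1797 lower genes of all 15413 tested. Gabrp, a subunit of the GABA-A receptor, was at 7.26, 4.59, 5.96, 4.22 and 14.5 CPM after PNx with scrambled cells and at 0.891, 0.116, 0.145, 0.174 and 0.359 CPM in Sham (log2 fold change 4.36 ± 0.51, adjusted p = 0.000392 by edgeR). It had 16 counts in all Sham samples together, and without Sham 1 its log2 fold change was 5.15.

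The water channel Aqp8 was at 2.39, 3.44, 5.23, 4.53 and 5.02 CPM against 0.693, 0.582, 0.509, 0.174 and 0.359 CPM (3.05 ± 0.32). Wfdc2, a secreted protease inhibitor, was at 261, 389.6, 381, 409.9 and 525 CPM against 153, 134, 152, 119 and 153 CPM (1.46 ± 0.16), and S100a10, a partner of annexin, was at 139.9 ± 25.5 CPM against 61.7 ± 2.19 CPM (SD, n = 5). Dhtkd1, a mitochondrial enzyme of lysine breakdown, was lower, at 29.8 ± 6.21 CPM against 84.6 ± 11.5 CPM (-1.50 ± 0.15). With the length trend removed, edgeR's adjusted p was under 0.05 for each of these 5 genes. With the length index as a covariate Wfdc2, S100a10 and Dhtkd1 lost their calls, and Wfdc2 also lost its call in the 5-arm fit.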
